A study of Mus musculus with 6 samples.

Results

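The naive and recirculation genes were 7 genes, Ccr7, S1pr1, Klf2, Lef1, Tcf7, Igfbp4 and Dapl1, taken by symbol from the 32285 features of the deposited matrices. They were read in 6 single-cell RNA sequencing libraries of α/β-TCR+ T cells sorted from mouse kidneys as CD45+ cells, with 1 library each for the CD4, CD8 and double negative (DN, CD4- and CD8-) T cells of normal (control) and ischemic (IR) kidneys. All mice were male wild type C57BL/6J mice of 7 to 8 weeks. In the IR group both renal pedicles were clamped for 30 min before reperfusion and injury was checked by creatinine at 24 h, while the interval from reperfusion to the collection of these cells, the operation given to control mice and the number of mice in a library were not given in the sources used here. Each group had 1 library, so no test was run, no replicate check stands behind any difference, and every interval is an exact 95% interval for counting error alone. A difference is called when the higher library reached 10 CPM (the usual scaled count, UMIs of the gene relative to all UMIs of the retained features in its library) and the ratio was at least 2-fold.

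Naive and central memory T cells travel between blood and lymphoid organs, whereas resident and effector T cells remain in tissue. CCR7 is the chemokine receptor that brings T cells into lymph nodes, and S1PR1 senses sphingosine 1-phosphate and lets them leave. KLF2 is a transcription factor that maintains S1PR1, LEF1 and TCF1 (encoded by Tcf7) are related DNA-binding factors of naive and stem-like memory cells, IGFBP4 is a secreted binding protein of insulin-like growth factors, and Dapl1 encodes death associated protein-like 1.

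After filtering, 47713 cells remained of 54039 barcodes. Control libraries were deeper, with a median of 6636 to 8369 UMIs per cell against 1462 to 2360 in IR, and mitochondrial, ribosomal protein and Malat1 features took 21% to 26.6% of control UMIs against 30.5% to 45.2% of IR UMIs. The sort markers followed the labels: Cd4 reached 210 CPM in the control CD4 library and 146 CPM in its IR counterpart, with 0.154 to 0.466 CPM in the other 4 libraries. Cd8b1 reached 1371 CPM (control CD8) and 1094 CPM (IR CD8), with 1.33 to 6.09 CPM elsewhere. Between 37 and 61 cells of a library carried a barcode sequence also found in another library of the same condition.

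Promoter sequences (RefSeq, GRCm38.p6, 250 bases before to 50 bases after the start) were given for 5 of the 7 genes, with 9 windows between them. The windows of Klf2, Igfbp4 and Dapl1, which were at least 2-fold higher after ischemia in CD4 and CD8 cells, are printed beside the first window of Lef1, which did not reach 2-fold in either. Capitals mark the searched letters on either strand, CACCC or GGGTG (bound by KLF factors), CTTTGA or TCAAAG (TCF and LEF factors) and GTAAACA or TGTTTAC (FOXO factors).
Klf2 (chr8:72318812-72319111, plus strand): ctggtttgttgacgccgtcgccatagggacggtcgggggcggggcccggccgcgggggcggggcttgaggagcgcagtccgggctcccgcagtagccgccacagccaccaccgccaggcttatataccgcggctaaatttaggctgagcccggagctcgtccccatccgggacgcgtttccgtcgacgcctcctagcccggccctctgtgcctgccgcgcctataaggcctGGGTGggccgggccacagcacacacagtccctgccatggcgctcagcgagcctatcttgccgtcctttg
Igfbp4 (chr11:99040994-99041293, plus strand): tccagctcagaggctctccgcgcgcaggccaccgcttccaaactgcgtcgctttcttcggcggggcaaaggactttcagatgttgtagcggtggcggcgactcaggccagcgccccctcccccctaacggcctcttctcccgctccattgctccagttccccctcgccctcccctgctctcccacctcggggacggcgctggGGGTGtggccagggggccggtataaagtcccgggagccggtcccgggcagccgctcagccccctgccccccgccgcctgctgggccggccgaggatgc
Dapl1 (chr2:59484403-59484702, plus strand): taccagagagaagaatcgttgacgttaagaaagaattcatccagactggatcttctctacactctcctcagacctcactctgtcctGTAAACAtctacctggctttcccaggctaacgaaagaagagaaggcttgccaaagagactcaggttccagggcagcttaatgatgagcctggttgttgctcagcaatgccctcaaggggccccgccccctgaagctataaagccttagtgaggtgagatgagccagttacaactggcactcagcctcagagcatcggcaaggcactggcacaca
Lef1 (chr3:131110047-131110346, plus strand): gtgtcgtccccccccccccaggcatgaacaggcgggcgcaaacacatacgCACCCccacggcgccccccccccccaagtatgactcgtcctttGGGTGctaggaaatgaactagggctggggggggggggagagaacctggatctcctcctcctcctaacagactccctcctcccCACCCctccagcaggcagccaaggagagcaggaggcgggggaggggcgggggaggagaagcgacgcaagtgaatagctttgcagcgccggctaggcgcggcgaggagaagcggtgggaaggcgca
Of these 4 windows, Klf2 and Igfbp4 held 1 KLF motif each, Lef1 held 3, and Dapl1 held none but had 1 FOXO motif. Over all 32851 windows of the same length, 57.5% held the KLF letters, 16.0% the TCF and LEF letters and 3.65% the FOXO letters, so a KLF match is the common case. Of the other windows, those of Tcf7 held 2 KLF motifs each and 1 of them a FOXO motif, and only the last of the 4 Lef1 windows held TCF and LEF letters, with 2 matches.

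The first comparison asked how the genes differed between ischemic and normal kidney within each sorted subset. In CD4 and CD8 cells 5 of the 7 were at least 2-fold higher in IR, namely Ccr7, S1pr1, Klf2, Igfbp4 and Dapl1, while Tcf7 was higher by less than 2-fold and Lef1 lay close to its control level. In DN cells Klf2 alone was called higher, of the 4 members that reached 10 CPM there. The share of all features called higher was 7.71% in CD4, 7.98% in CD8 and 8.36% in DN, and the median log2 ratio of all features tested was -0.27, -0.37 and -0.26. In bulk sums of this kind, more cells with a transcript and more transcript per cell cannot be told apart. The shares of cells are given further on, but at low counts per cell they do not settle this either.

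**Figure D1:**
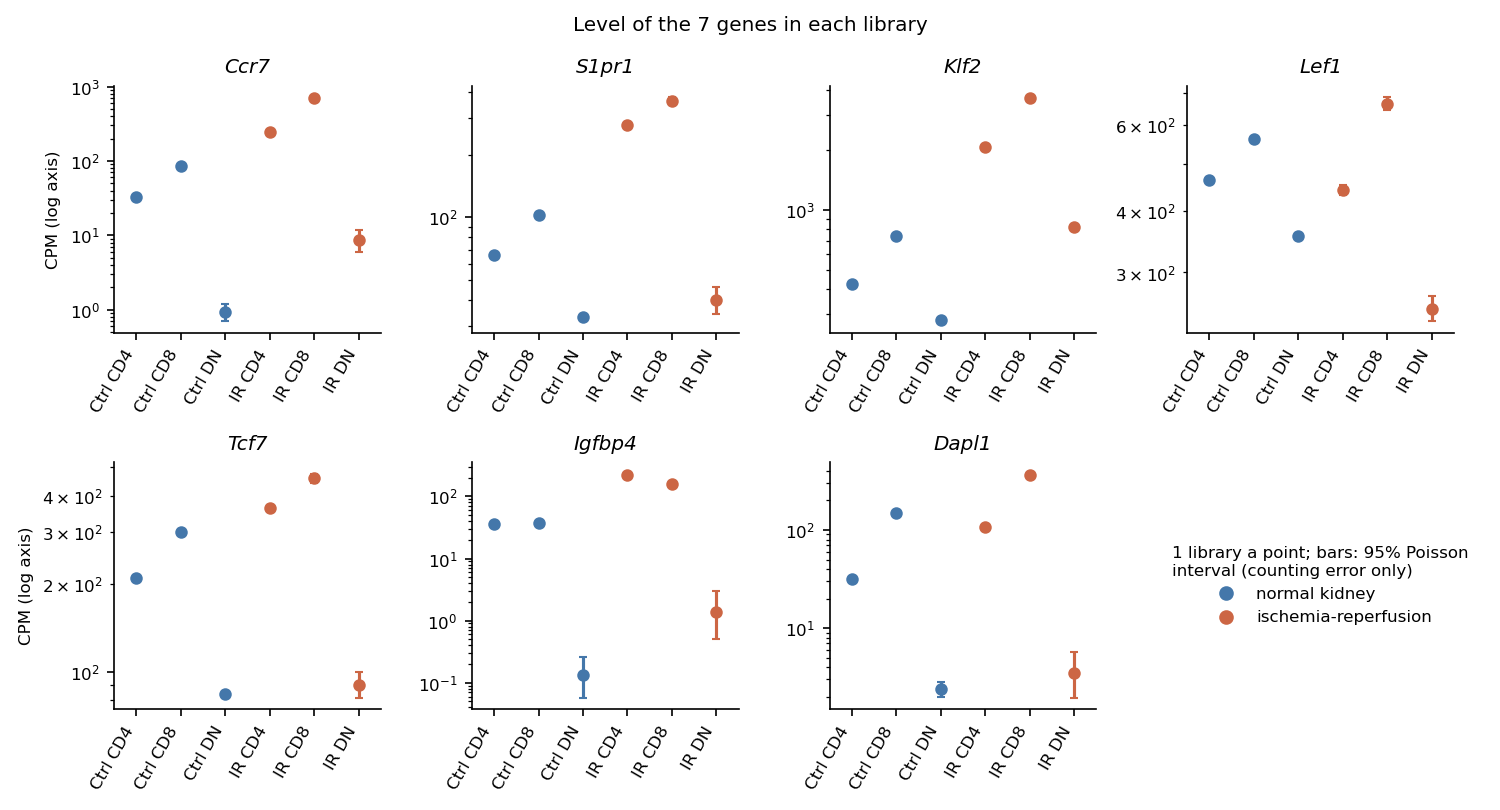
Level of each of the 7 genes in the 6 libraries, as CPM of summed UMIs on a log axis, with exact 95% Poisson intervals that cover counting error only (1 library per group). The IR CD8 library holds the highest level of every gene except Igfbp4, which was highest in IR CD4, and the DN libraries lie lowest for every gene except Klf2.

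Of the receptors, Ccr7 (chromosome 11, 99144196 to 99155077, minus strand) was at 32.9 CPM (31.3 to 34.5) in control CD4, 85.4 (82.8 to 88.1) in control CD8 and 0.921 (0.696 to 1.20) in control DN, and at 248 (240 to 256), 699 (678 to 719) and 8.54 CPM (6.01 to 11.8) in the IR libraries in the same order. Both IR libraries of CD4 and CD8 cells thus lay above both control libraries, and the DN libraries lay far below. The IR over control ratio was 7.53-fold in CD4 (log2 2.91, 2.83 to 3.0) and 8.18-fold in CD8 (log2 3.03, 2.97 to 3.09). In DN cells it rested on 37 and 56 UMIs, with log2 3.21 (2.57 to 3.84), and was not called because neither library reached 10 CPM. S1pr1 (chromosome 3, 115710433 to 115715072, minus strand) was at 65.9 CPM in CD4, 103 in CD8 and 33.1 in DN cells of normal kidney, and at 277, 362 and 39.9 CPM in those of ischemic kidney. It was 4.20-fold higher in IR CD4 and 3.53-fold higher in IR CD8. In DN it was 1.21-fold higher (log2 0.27, 0.04 to 0.50), below the 2-fold limit.

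Of the transcription factors, Klf2 (chromosome 8, 72319033 to 72321656, plus strand) was at 426, 742 and 278 CPM in control CD4, CD8 and DN and at 2082, 3647 and 824 CPM in IR. It was the only member called higher in all 3 subsets, 4.89-fold in CD4 (log2 2.29, 2.26 to 2.31), 4.91-fold in CD8 (log2 2.30, 2.27 to 2.32) and 2.96-fold in DN (log2 1.57, 1.51 to 1.62). Its level in IR DN (797 to 852 CPM) lay above that in control CD8 cells (734 to 750 CPM). Tcf7 (chromosome 11, 52252371 to 52283014, minus strand) was at 210, 302 and 83.6 CPM in the control libraries and at 363, 459 and 90.0 CPM in IR, which is 1.73-fold higher in CD4 and 1.52-fold higher in CD8. In DN its log2 ratio of 0.11 had an interval of -0.05 to 0.25. Lef1 (chromosome 3, 131110471 to 131224356, plus strand) was at 464, 562 and 356 CPM in control CD4, CD8 and DN and at 443, 665 and 253 CPM in IR. Its ratio differed in sign between the subsets, with a log2 value of -0.07 (-0.11 to -0.03) in CD4, 0.24 (0.19 to 0.29) in CD8 and -0.49 (-0.58 to -0.41) in DN, and that difference between subsets was not tested. These signs depended on the processing. With mitochondrial, ribosomal protein and Malat1 features kept in the totals the CD8 value was -0.18, with other lineage barcodes left out the CD4 value was 0.24, and with ratios centred by intronic length the values were 0.70, 0.98 and 0.15 in CD4, CD8 and DN, all of 1 sign.

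Igfbp4 (chromosome 11, 99041244 to 99054392, plus strand) was at 35.7 CPM (34.1 to 37.4) in control CD4 and 36.8 CPM (35.1 to 38.6) in control CD8, which did not differ beyond counting error. IR CD4 cells held 225 CPM and IR CD8 cells 159 CPM. It was 6.29-fold higher in IR CD4 and 4.32-fold higher in IR CD8, and it was the only member higher in IR CD4 than in IR CD8. In DN cells it was nearly absent, with 8 UMIs in control (0.132 CPM) and 6 UMIs in IR (1.38 CPM). Dapl1 (chromosome 2, 59484653 to 59505020, plus strand) was at 31.3, 149 and 2.37 CPM in control CD4, CD8 and DN and at 106, 360 and 3.46 CPM in IR. It was 3.40-fold higher in IR CD4 (log2 1.77, 1.67 to 1.87) and 2.42-fold higher in IR CD8 (log2 1.27, 1.20 to 1.34). With the removed features kept in the totals the CD8 value was log2 0.85, under the 2-fold limit, and that scaling moved the median of all features by -0.36 in CD4, -0.42 in CD8 and -0.18 in DN.

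**Figure D2:**
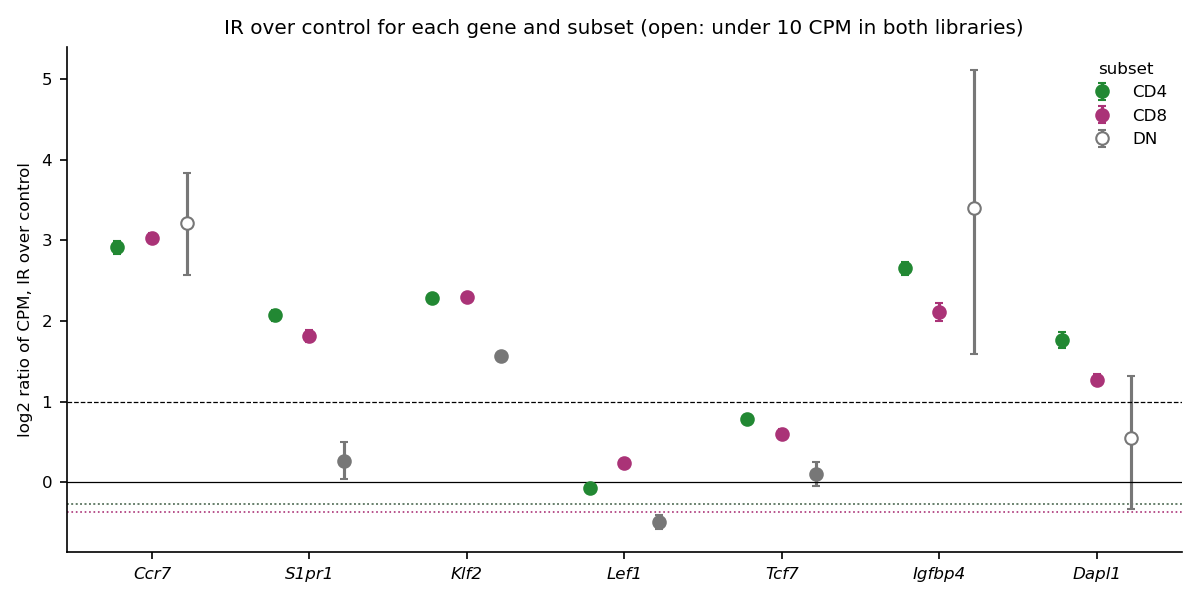
IR over control log2 ratio of each gene in CD4, CD8 and DN cells with exact 95% intervals for counting error. The dashed line marks 2-fold higher in IR, dotted lines the median of all features tested in each subset, and open points members under 10 CPM in both libraries. In CD4 and CD8 5 genes lie past 2-fold, and only Klf2 does so among the filled DN points.

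Control libraries were processed with Cell Ranger 5.0.1 and IR libraries with 6.0.1 according to the file headers, so condition and software version cannot be told apart. Other signals moved with condition as well. Of 12 immediate early genes, which respond to handling and stimulation, 6 were at least 2-fold higher in IR in CD4, 5 in CD8 and 5 in DN. Of all features 7.71%, 7.98% and 8.36% were. Their median log2 ratio was 1.06, 0.96 and 0.95, and their summed level was 9347 to 11043 CPM in control and 16421 to 23824 CPM in IR. The list did not move as a whole. In CD4, Fosb (671 and 429 CPM in control and IR), Jun (2001 and 1712) and Btg2 (1180 and 738) were lower in IR, by less than 2-fold. The 8 heat shock genes had a median of -1.13, -1.34 and -1.41. Summed erythroid genes were at 1.16 to 1.28 CPM in control and 19.8 to 27.6 CPM in IR, with none of the 4 genes at 0, B cell genes at 1.91 to 11.8 and 8.16 to 25.0 CPM with at most 1 of 4 genes at 0 in a library, and myeloid genes at 3.21 to 19.4 and 15 to 27.1 CPM with at most 2 of 8 at 0, although in CD8 the myeloid sum was alike (19.4 and 19.6 CPM). Genes of NK and innate lymphoid cells summed to 78.0, 330 and 328 CPM in control CD4, CD8 and DN cells and to 168, 755 and 569 CPM in IR, with none of 4 at 0. Most of this sum was Klrd1, which some T cells also express, whereas Eomes in CD8 (60.2 and 28.7 CPM) and Ncr1 in DN (15.3 and 6.69 CPM) were lower in IR. The part of these signals in the ratios above was not tested. Leaving out barcodes with 2 or more UMIs of B cell, myeloid, endothelial or tubule genes removed 1646 control and 272 IR cells of CD4, and 1403 control and 88 IR cells of CD8. The CD4 log2 ratio was then 3.90 for Ccr7, 3.67 for Igfbp4, 2.86 for Dapl1 and 1.07 for Tcf7, the last of these past 2-fold. The endothelial list was almost all Pecam1, at 129 of 132 CPM in control CD4, a gene that T cells also express and that was 3.58-fold higher in control CD4 cells with 2 or more of the 7 genes than in cells with none.

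The genes that act with the members were read from lists chosen by function. Of 14 other naive-associated genes, 6 were at least 2-fold higher in IR CD4, 5 in IR CD8 and 3 in IR DN, and none was lower, with a median log2 ratio of 0.35, 0.54 and -0.05. Of all features, 7.71%, 7.98% and 8.36% were higher and 15.2%, 17.5% and 11.3% were lower in CD4, CD8 and DN. Il7r, the receptor for the survival cytokine IL-7, had a log2 ratio of 1.75 in CD4, 1.06 in CD8 and 2.27 in DN, and Btg1, an antiproliferative gene, had 2.02, 1.88 and 1.78. Foxo1, a factor known to act upstream of Klf2 and Il7r, had log2 ratios of the other sign, at -0.69, -0.44 and -0.66. The ratios of these lists were not centred by intronic length, a choice that moved the CD4 log2 ratio of Lef1 from -0.07 to 0.70. Whether the sign of Foxo1 depends on it was not tested. Of the tested genes of sphingosine 1-phosphate and chemokine receptor signalling (7 in CD4, 8 in CD8 and 7 in DN, of 9), none differed 2-fold in either direction. Among them, Cd69, whose protein removes S1PR1 from the cell surface, had log2 ratios of 0.09, 0.06 and 0.07. Likewise none of the 6 tested TCF and LEF partners and relatives, such as Ctnnb1 and the Tle corepressors, differed 2-fold in any subset. These 0 counts are of few genes and are to be read against those shares. Of the 19 effector and residency genes, 5 of 17 tested were lower in IR CD4, 9 of 19 in IR CD8 and 6 of 16 in IR DN, and 1, 0 and 1 were higher.

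The second comparison asked how the genes differed in DN cells from CD4 and CD8 cells of the same kidneys. The ratios against CD4 and against CD8 share the DN library. In normal kidney 4 of 7 genes were at least 2-fold lower in DN than in CD4, where 1.39% of all features were, and 6 of 7 were lower than in CD8, where 3.03% were. The count against control CD4 ran from 1 to 6 over the alternatives, lowest at a minimum of 50 CPM. In ischemic kidney 6 of 7 were lower than in CD4 (2.41% of all features) and 7 of 7 lower than in CD8 (4.22%). Ccr7, Igfbp4 and Dapl1 were at or below 8.54 CPM in the DN libraries, whereas Klf2, Lef1, Tcf7 and S1pr1 stayed between 33.1 and 824 CPM.

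Igfbp4 had log2 ratios of -8.08 (-9.30 to -7.10) against control CD4 and -8.13 against control CD8, and of -7.34 (-8.79 to -6.22) and -6.85 in ischemic kidney. The control values rest on 8 UMIs in the DN library and ranged over the alternatives from -8.11 to -6.60 against CD4 and from -8.17 to -6.77 against CD8, nearest to 0 with each cell thinned to the same depth. The IR values rest on 6 UMIs in the DN library and ranged over the alternatives from -8.91 (without cells whose barcode was shared with another library) to -5.40 (no cell filters) against CD4, and from -8.41 to -4.86 against CD8. With no cell filters Ccr7 and Dapl1 were lower than Igfbp4 against IR CD8, at -6.24 and -6.08. Ccr7 had log2 ratios of -5.16 and -6.53 against control CD4 and CD8 and of -4.86 and -6.35 in IR. Dapl1 had -3.72 and -5.97 in control and -4.94 and -6.70 in IR. S1pr1 lay at the limit in normal kidney, at -0.99 against CD4, and ranged from -0.61 with other lineage barcodes left out to -1.56 with each cell thinned to the same depth. Against control CD8 and against IR CD4 and CD8 it was at -1.63, -2.79 and -3.18.

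Of the factors, Tcf7 had log2 ratios of -1.33 and -1.85 against control CD4 and CD8 and of -2.01 and -2.35 in IR, and Klf2 had -0.61 and -1.41 in control and -1.34 and -2.15 in IR. Lef1 was nearest to its level in the other subsets, at -0.38 and -0.66 in control and -0.81 and -1.39 in IR, and was called only against IR CD8. Even so, the Lef1 ratio stood at the 6.32, 5.43, 3.22 and 2.50 percentile of all features tested in the same order. Of the 14 other naive-associated genes, 3, 5, 5 and 6 were at least 2-fold lower in DN in the 4 comparisons (control against CD4, control against CD8, IR against CD4, IR against CD8), where 1.39%, 3.03%, 2.41% and 4.22% of all features were. Satb1, a chromatin organiser, was higher in control DN than in control CD8 cells (848 against 385 CPM), as were 3.55% of all features, and it was the only one of the 14 called higher in these comparisons.

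Between CD8 and CD4 cells, Ccr7 and Dapl1 were at least 2-fold higher in CD8 in both conditions, so that 2 of 7 genes were called where 1.74% of all features were in control and 3.98% in IR. The log2 ratio was 1.38 in control and 1.5 in IR for Ccr7, and 2.25 (2.17 to 2.33) and 1.76 for Dapl1. Igfbp4 had 0.04 (-0.05 to 0.14) in control and -0.50 in IR.

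The shares of cells with these transcripts were compared after each cell had been thinned to 600 UMIs of the retained features, with 47304 of 47713 cells deep enough. At this depth 2 or more of the 7 genes were detected in 11.9% (11.3 to 12.6) of control CD4 cells, 22.1% (21.2 to 22.9) of control CD8 cells and 4.54% (4.11 to 4.99) of control DN cells. In IR the shares were 34.8% (33.8 to 35.7), 57.0% (55.8 to 58.2) and 5.93% (5.21 to 6.72). The IR shares were higher in CD4 and CD8 cells, and the DN libraries stayed low. Without thinning the order changed, with 56.6%, 61.5% and 53.6% of control CD4, CD8 and DN cells against 51.2%, 67.3% and 13.1% in IR, at median depths of 7041, 6636, 8369, 2360, 1763 and 1462 UMIs. Unthinned shares are not compared further, since the libraries differed so much in depth. At 3 or more genes the thinned shares were 4.61%, 8.67% and 0.315% in control and 19.2%, 35.8% and 0.844% in IR, and all 7 genes were found together in 2 IR CD4 cells and 1 IR CD8 cell.

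**Figure D3:**
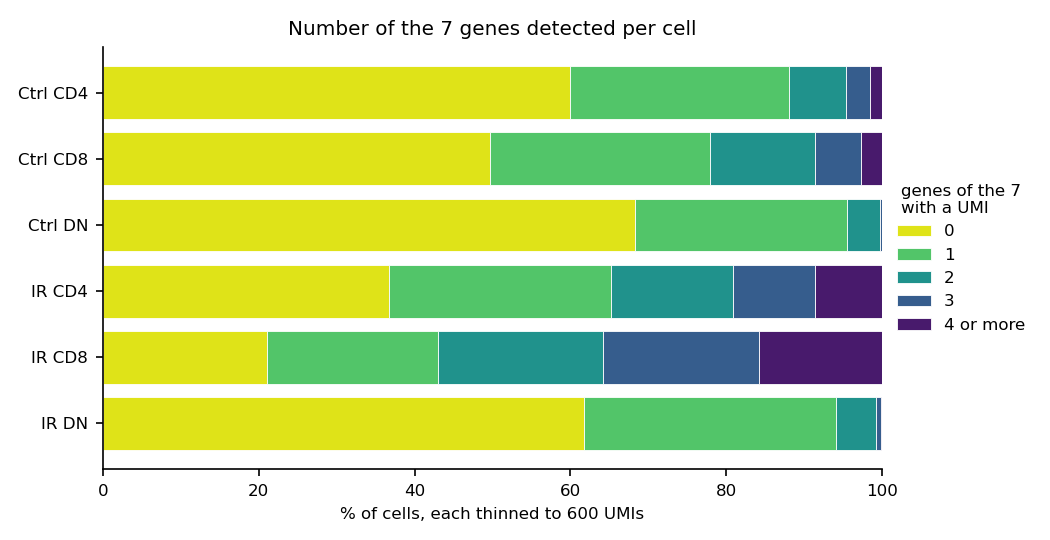
Share of cells (percent) of each library by the number of the 7 genes detected, after thinning every cell to 600 UMIs. None of the genes was detected in 59.96% of control CD4, 49.6% of control CD8 and 68.2% of control DN cells, against 36.7%, 21.1% and 61.8% of IR CD4, CD8 and DN cells.

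Gene by gene, Ccr7 was detected in 1.95% of control CD4 and 4.75% of control CD8 cells and in 11.8% and 28.3% of IR CD4 and CD8 cells. The DN libraries, with the lowest Ccr7 levels, had 0.0450% of control and 0.358% of IR cells at the same depth. The share was 6.07-fold higher in IR CD4 and 5.96-fold higher in IR CD8, and the UMIs per positive cell were 1.21- and 1.42-fold higher. At this depth control CD4 held 208 Ccr7 UMIs in 9188 cells. With so few UMIs, a higher level in every cell would also appear mainly as a higher share. Share and UMIs per positive cell therefore do not separate more expressing cells from more transcript per cell. Klf2 differed in both terms, with a share of 18% in CD4, 27.9% in CD8 and 12.6% in DN cells of normal kidney, and of 49.9%, 69.3% and 24.8% in those of ischemic kidney. Its UMIs per positive cell were 1.81-, 2.07- and 1.49-fold higher in IR. For S1pr1 the share was 3.11-fold higher in IR CD4 and 3.17-fold in IR CD8, for Igfbp4 5.89- and 3.95-fold, for Dapl1 3.61- and 2.35-fold and for Tcf7 1.70- and 1.54-fold, with UMIs per positive cell 1.03- to 1.18-fold those of control. Lef1 was detected in 20.6%, 22.5% and 18% of control CD4, CD8 and DN cells and in 21.1%, 30.2% and 13.1% of IR cells. Igfbp4 was found in 2 of 8880 control DN cells and in 0 of 3910 IR DN cells, which at 600 UMIs allows a share of cells with a UMI of up to 0.0943% (Clopper-Pearson). Without thinning 4 of 3967 IR DN cells (0.101%) had an Igfbp4 UMI.

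The genes were then read together in single cells. For each pair, the number of thinned cells with both transcripts was divided by the number expected from the 2 separate shares of the library, where at least 5 cells were expected. The ratio was above 1 for 18 of 18 such pairs in control CD4, 21 of 21 in control CD8, 6 of 6 in control DN, 21 of 21 in IR CD4, 21 of 21 in IR CD8 and 5 of 5 in IR DN. The median ratio of the control libraries was 3.17 (CD4), 1.95 (CD8) and 1.29 (DN), and that of the IR libraries 2.03, 1.38 and 1.44. These medians cover different pairs. In the DN libraries only pairs among S1pr1, Klf2, Lef1 and Tcf7 had 5 or more cells expected. The DN medians are therefore not comparable with those of CD4 and CD8. Ccr7 and S1pr1 led in control CD4 at 5.76, Ccr7 and Igfbp4 in control CD8 at 4.32, and Igfbp4 and Dapl1 in IR CD4 and IR CD8 at 3.67 and 1.77. In the DN libraries S1pr1 led, with Tcf7 in control (2.67) and with Lef1 in IR (2.22). The lowest ratios belonged to pairs of the 3 factors in every library, such as 1.55 for Lef1 with Tcf7 in control CD4 and 1.23 for Klf2 with Tcf7 in IR CD8. A gene present in most cells cannot give a high ratio, which limits the comparison of Klf2 in IR CD8 (69.3% of cells) with the rarer genes. In DN cells Lef1 with Tcf7 was at 1.04 in control and Klf2 with Lef1 at 1.03 in IR, close to the number expected from separate shares. Igfbp4 and Ccr7 lie 89803 bases apart on chromosome 11 with 1 feature between them, Tns4, which had 25 UMIs over the 6 libraries.

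**Figure D4:**
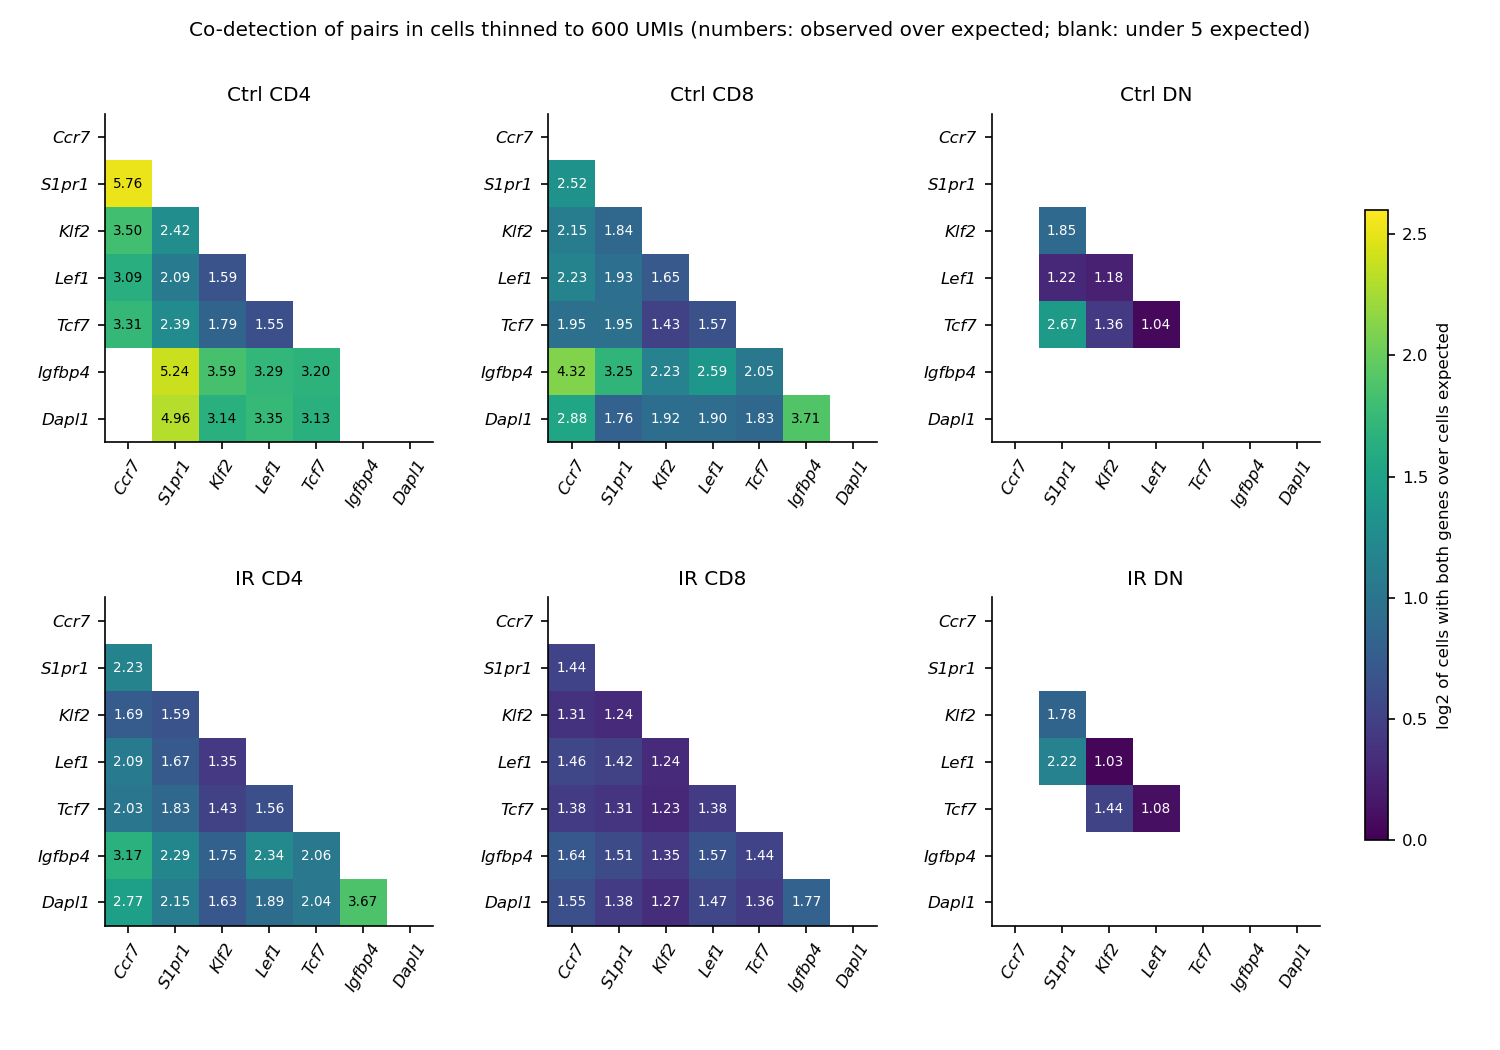
Observed over expected number of cells with both genes of a pair (log2 colour scale) in each library, after thinning to 600 UMIs, with pairs under 5 expected cells left blank. The control CD4 panel holds the highest ratios (up to 5.76), and the DN panels hold only 6 and 5 pairs.

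To read a gene in cells that it had not itself selected, cells were divided by whether 2 or more of the other 6 genes were detected. In control CD4 cells Dapl1 was 27.5-fold, Igfbp4 23.1-fold and Ccr7 17.0-fold higher in cells with 2 or more other members than in the remaining cells. These folds rest on 35, 50 and 65 UMIs in the remaining cells. They were smaller elsewhere, in the same gene order at 4.22, 7.47 and 5.79 in control CD8. In IR they were 8.35, 10.8 and 7.55 in CD4 and 3.41, 5.21 and 3.20 in CD8. For Lef1 the fold was 4.42 in control CD4 and 3.45 in control CD8, but 1.27 in control DN, where the log2 interval of -0.24 to 0.89 includes 0, and 2.15 in IR DN. The control DN value rests on 28 UMIs in the 2 or more class. Without thinning, 75.7% of control DN cells had a Lef1 UMI.

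The IR over control ratios were also read within and outside these classes. Most of the genes that define the classes were themselves higher in IR, so the classes differ in size and makeup between conditions. Cells with 2 or more members other than Ccr7 were 11.4% of control and 32.5% of IR CD4 cells, and 20.6% and 51% of CD8 cells. The values that follow therefore do not compare like cells and are given as a description, with no test. Ccr7 was at 227 CPM in control and 669 CPM in IR CD4 cells with 2 or more other members (log2 1.56), and at 13.3 and 88.5 CPM in the remaining cells (log2 2.73). The corresponding log2 values in CD8 were 2.14 and 2.99. S1pr1 had 0.88 and 1.43 in CD4 and 1.15 and 1.42 in CD8. Igfbp4 had 1.43 and 2.53 in CD4 and 1.10 and 1.62 in CD8, and Dapl1 had 0.40 and 2.12 in CD4 and 0.57 and 0.87 in CD8. Klf2 was 2.71-fold higher in IR CD4 and 3.11-fold higher in IR CD8 within such cells (log2 1.44 and 1.64), and in DN cells its values were 1.93 within and 1.53 outside them. Tcf7 had 0.21 within and 0.49 outside such cells in CD4, and in CD8 its value was larger within them (0.25) than outside (0.17). In CD4 and CD8, Lef1 was lower in IR both within and outside such cells. It was at 1783 CPM in control and 921 CPM in IR CD4 cells with 2 or more other members (log2 -0.95). In the remaining CD4 cells it was at log2 -0.58. The CD8 values of Lef1 were -0.39 and -0.20.

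**Figure D5:**
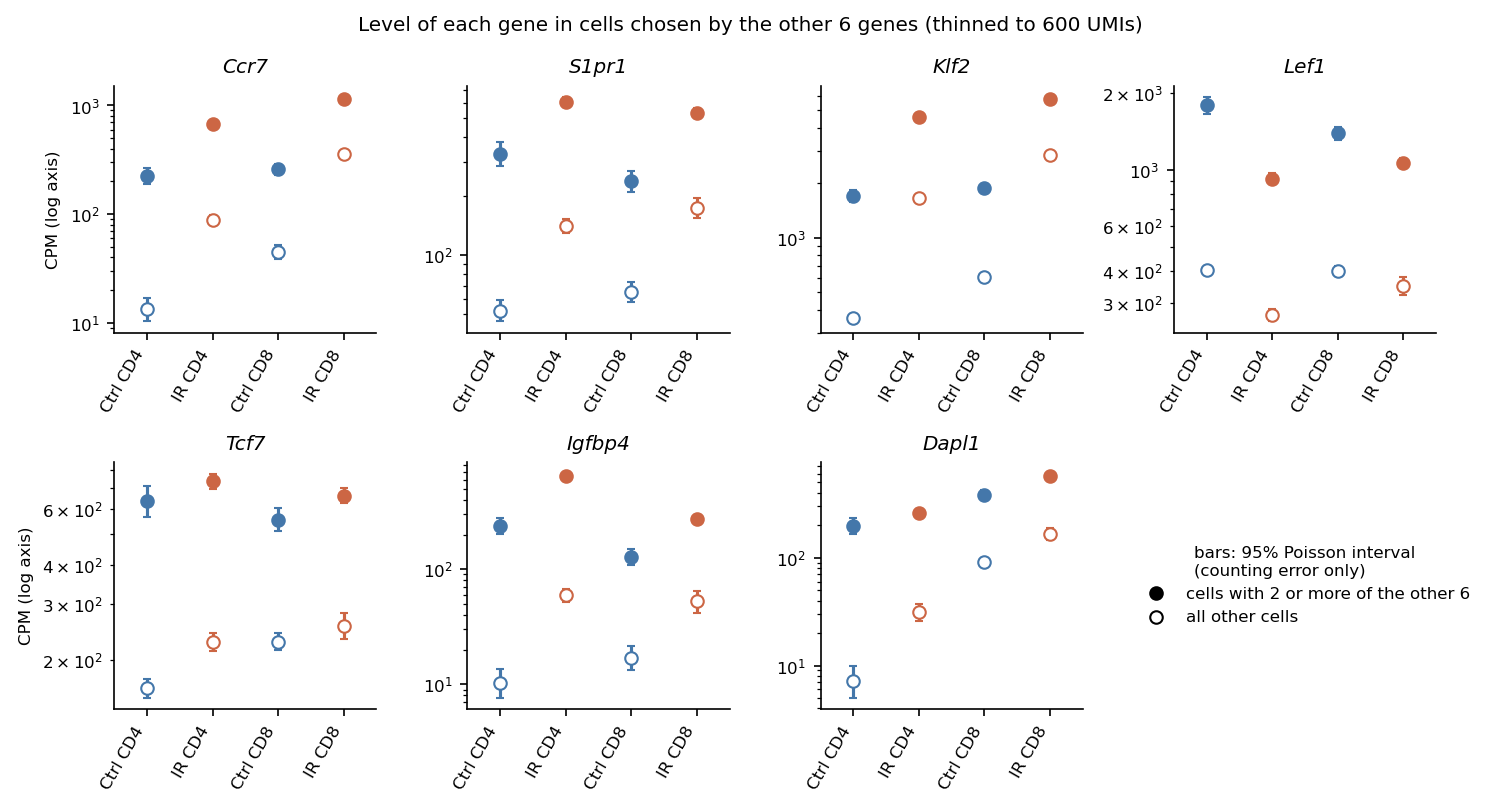
CPM of each gene (log axis) in thinned cells with 2 or more of the other 6 members (filled) and in the remaining cells (open) of the 4 CD4 and CD8 libraries, with 95% Poisson intervals for counting error only. Every gene lies higher in cells with 2 or more other members, and Lef1 is the gene whose control CD4 value (1783 CPM) exceeds the IR CD4 value (921 CPM) in such cells.

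Other genes were described in cells with 2 or more of the 7 genes against cells with none, which were 1094 and 5509 in control CD4, 2002 and 4504 in control CD8, 403 and 6060 in control DN, 3493 and 3690 in IR CD4, 3536 and 1310 in IR CD8, and 232 and 2416 in IR DN. In IR DN the smaller class held so few cells that 1 UMI stood for 7.18 CPM, so its counts there are imprecise. Cells with 2 or more members also had a larger median share of mitochondrial, ribosomal protein and Malat1 UMIs, from 22.2% against 20.8% in control DN to 50.4% against 33.3% in IR CD8. The part of this difference in the values below was not tested.

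Among the genes most joined to the members over the 4 CD4 and CD8 libraries were Ifngr2, Tdrp, Nsg2 and Atp1b1. Ifngr2, a chain of the interferon-γ receptor, was 18.5- to 23.7-fold higher in the 4 libraries and was too low in DN cells to compare. Nsg2 was 25.8-fold higher in control CD4 (125 against 4.84 CPM), 6.86-fold in control CD8 (102 against 14.8), 30.3-fold in IR CD4 (137 against 4.52) and 7.51-fold in IR CD8 (105 against 14.0). Those most reduced were Fgl2, Metrnl, Xcl1, Entpd1 and Hip1. Fgl2, a secreted immunoregulatory protein, had log2 ratios of -2.46 and -2.03 in control CD4 and CD8 and of -3.77 and -4.32 in IR. In DN cells it had -0.77 in control and -1.30 in IR. Xcl1, a chemokine of activated and innate-like lymphocytes, had -2.40, -1.89, -3.81 and -3.96 in the same 4 libraries, and -0.38 and -0.06 in DN cells.

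Of the 14 other naive-associated genes, 10 were at least 2-fold higher in cells with 2 or more members in control CD4, 11 in control CD8, 5 in control DN, 9 in IR CD4, 11 in IR CD8 and 4 in IR DN. The share of all other features that were higher was 4.97%, 4.57%, 5.98%, 4.59%, 9.38% and 10.2% in the same order. Id3, Actn1 and Klf3 were among those higher in both DN libraries, and Il7r was higher in control DN (log2 1.94). Ccr9, the gut-homing receptor, was lower in CD4 cells with 2 or more members (log2 -1.12 in control and -2.54 in IR) and higher in such CD8 cells (2.89 and 4.46).

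Of 19 effector and residency genes, 14 of 16 tested were at least 2-fold lower in cells with 2 or more members in control CD4, 11 of 19 in control CD8, 16 of 17 in IR CD4 and 18 of 19 in IR CD8, but 1 of 16 in each DN library. The share of all other features that were lower was 6.84% in control CD4, 4.65% in control CD8, 5.88% in control DN, 9.23% in IR CD4, 10.2% in IR CD8 and 9.8% in IR DN. Cxcr6, a chemokine receptor of tissue-resident T cells, had log2 ratios of -1.59 (CD4), -1.60 (CD8) and -0.81 (DN) in normal kidney and of -3.55, -3.41 and -0.97 in ischemic kidney. Cd44, an adhesion receptor raised on antigen-experienced cells, had -1.09, -1.09 and -0.29 in control and -2.14, -2.59 and -0.47 in IR. Against this direction, Itgae, which encodes the integrin αE, was higher in control CD8 cells with 2 or more members (log2 2.50). The chemokine Ccl5 was higher in such DN cells (1.12 in control and 1.69 in IR).

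Across the 6 libraries, levels were compared with the mean of the 7 (log2 of CPM plus 1, each gene centred). With the members left out, the genes most like this mean were Gm8369 (Pearson r 0.994), Hspb11 (0.989), Rgs10 (0.988), Atp1b3 (0.985) and Nsg2 (0.985). Of all 5020 features at 50 CPM or more in a library, members included, Ccr7 (0.993) ranked 2 and Tcf7 (0.988) ranked 5. Between members r ran from 0.48 for Klf2 with Lef1 to 0.989 for Tcf7 with Dapl1. These values describe 6 points that share condition, depth and software version, and have no test.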

How the data were processed

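Sorted mouse kidney T cells were profiled with 10x Genomics 3′ single-cell RNA sequencing, 1 library for each of 6 groups, named from their GEO titles. The deposited matrices are raw, unnormalized UMI counts, which the authors produced with Cell Ranger against mm10 (5.0.1 in the 3 control and 6.0.1 in the 3 IR libraries per the file headers, 6.0.1 in the submitters' processing notes). The methods state default settings and do not name the settings for introns or strand.

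Following the study's filters, barcodes needed 500 detected features, a mitochondrial share of no more than 20% and a UMI total below the top 5% of their library. No doublet caller was run. Cells also needed a UMI of 1 of 6 T cell genes (Cd3d, Cd3e, Cd3g, Trac, Trbc1, Trbc2), which removed 564 barcodes and differs from the clusters removed by the study. Without 104 mitochondrial, ribosomal protein and Malat1 features, summed counts (4333896 to 60785038 UMIs a library) were scaled to CPM. A count of 0 was set to 3 counts in ratios, 0.0494 to 0.692 CPM over a library. Exact 95% intervals (Poisson for levels, conditional binomial for ratios, Clopper-Pearson for shares) cover counting error only. Shares and co-detection used cells thinned without replacement to 600 UMIs.

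The 7 genes, lists and rules were chosen with earlier results of these data known. Genes outside the lists were the 5 highest and 5 lowest ratios between cells with 2 or more members and cells with none (by the ratio nearest to 1 over the 4 CD4 and CD8 libraries, at 50 CPM in the higher class) and the 5 genes most correlated with the members' mean. Recomputation used TMM scaling (edgeR 4.0.16 in R 4.3.3), other cell filters, thinning, weighting and thresholds, and centring by intronic length (GENCODE M21, 32158 of 32285 features matched). Values that need certain items are not reported here. Counting was tested on simulated data. Python 3.11.15, numpy 2.4.6 and scipy 1.17.1 were used.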

Additional observations from a re-analysis of the deposited data

Results flagged for a closer look

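The IR over control log2 ratio of Lef1 was 0.24 in CD8 cells, -0.068 in CD4 cells and -0.49 in DN cells, a change of sign between subsets with counting intervals that do not include 0. With 1 library a group this contrast of subsets was not tested, and the sign in CD8 turned when the removed features were kept in the totals. With ratios centred by intronic length the values were 0.70, 0.98 and 0.15 in CD4, CD8 and DN, and the change of sign was gone.

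Some members were also found in the barcodes left out for lack of a T cell UMI (from 22 in control CD8 to 174 in IR DN), above their level in the control barcodes of the same kind. These barcodes entered only the alternatives without that filter or without cell filters. In those of IR CD8, Ccr7 was at 351 CPM (260 to 464) against 71.8 in control (14.8 to 209.7, from 3 UMIs), S1pr1 at 172 CPM (110.1 to 256) against 0 UMIs in control (up to 88.2 CPM), and Klf2 at 2170 CPM against 455 (274 to 710). Klf2 was at 852 CPM (723 to 998) against 472 (340.2 to 638) in CD4 and at 503 CPM (405 to 617) against 73.8 (8.94 to 267, from 2 UMIs) in DN. Other members were not, such as Lef1 in CD4 at 205 CPM in IR against 416 in control.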

How the results depend on the processing

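No log2 ratio past 2-fold changed sign under any alternative. Of 508 recomputed log2 ratios of members, 355 moved by less than their counting interval and 153 by more, and of 94 recomputed counts of called members 92 stayed within 1.5 times. Counts moved past that for IR DN with no minimum CPM (3 genes higher) and for control DN against CD4 at a minimum of 50 CPM (1 gene lower). Centring by intronic length gave Tcf7 log2 ratios of 1.13 and 1.07 in CD4 and CD8, which made 6 genes called in each, and Lef1 values of 0.70, 0.98 and 0.15 in CD4, CD8 and DN, so the small Lef1 ratios depend on this choice. With other lineage barcodes left out Lef1 was at 0.24 in CD4. TMM scaling gave S1pr1 in control DN against CD4 at -1.02, past 2-fold. The causes were not tested.

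The share of cells with 2 or more members depended on depth, as given here for control CD4, CD8 and DN and then IR CD4, CD8 and DN. It was 56.6%, 61.5%, 53.6%, 51.2%, 67.3% and 13.1% with no thinning, 5.62%, 10.5%, 1.71%, 21.4%, 38.6% and 2.55% at 300 UMIs, and 18.4%, 30.8%, 9.77%, 42.7%, 61.7% and 13.4% at 1000 UMIs, where 57 to 3634 cells of a library were left out. At 3 or more members it was 4.61%, 8.67%, 0.315%, 19.2%, 35.8% and 0.844%, and with Klf2 and Tcf7 left out 4.46%, 8.30%, 0.360%, 16.2%, 30.5% and 0.716%. Leaving out barcodes with other lineage UMIs gave 8.07% in control CD4 and 18% in control CD8, and keeping the top 5% of barcodes gave 6.99% in IR DN. With every thinned setting the IR share was above the control share of the same subset.

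The labels give no replicate numbers to pair by. A fit of IR against control over the 6 libraries with the subset as a block (3 pairs) was not run, since each subset was compared on its own. With 1 library per group, differences between mice, sorts and runs could not be estimated, and the IR DN library (3967 cells) limits the members near its floor, where Igfbp4 rests on 6 UMIs.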
